A study of Mus musculus with 6 samples.

Results

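The set comprised 140 of 12394 mouse genes whose array signal was halved within 1 h of lipopolysaccharide (LPS) in cultured macrophages. Members were chosen by their 0 h and 1 h signals, taking for each gene the brightest probe set on average: at least 100 at 0 h, and at 1 h at most 0.5 of the 0 h signal, in both genotypes. Of 6657 genes that met the 0 h minimum, 175 (2.63%) were halved, 247 were halved in wild type and 314 in knockout, counted separately. Of the 175, 35 were left out because their symbols begin with one of a list of family prefixes, and 29 of those 35 begin with Zfp. Because these values chose the members, the fall at 1 h is given as a description without a test.

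The cells were bone marrow-derived macrophages of C57BL/6J mice, grown from non-adherent marrow cells for 7 days in medium with 30% conditioned medium of L929 fibroblasts, which secrete the macrophage growth factor M-CSF. Wild-type cells and cells lacking IκBβ, an inhibitor that holds the transcription factor NF-κB in the cytoplasm, were left at 0 h or given LPS at 1 µg/ml for 1 h or 5 h. RNA of each genotype and time was measured on 1 Mouse Genome 430A 2.0 array, 6 arrays in all, so there were no replicates within a genotype and time. The sources used here do not give how the IκBβ gene was deleted or how many animals an array stands for. With 1 array each, differences between genotypes at a single time carry no test, and p-values for LPS measure the spread left between the genotypes, not that between animals.

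LPS, a component of the outer membrane of Gram-negative bacteria, is sensed by Toll-like receptor 4 on macrophages and switches on inflammatory genes through NF-κB and MAP kinases. How fast a transcript can fall depends on the stability of its RNA, and short-lived messages often encode transcription factors, signalling feedback proteins and other regulators. Growth-restraint genes driven by FoxO factors, such as those for thioredoxin-interacting protein and sestrins, are among transcripts known to respond quickly to growth signals.

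Promoter windows of RefSeq (assembly GRCm38.p6, 250 bases before to 50 after a start site) were matched by Entrez gene identifier for 115 of the 140 genes. The 6 windows below belong to genes that stand for the patterns described further on: steep falls at 1 h (Txnip, Frat2, Dusp6), a further fall by 5 h (Sesn1) and a fall followed by a rise (Tmem140, Tasor2). They are printed 5′ to 3′ on the gene's strand, and capitals mark any match to 12 short motifs that were searched on both strands. The Txnip window is chr3:96557707-96558006 on the plus strand, that of Frat2 chr19:41848083-41848382 on the minus strand and that of Dusp6 chr10:99262981-99263280 on the plus strand. The first of the Sesn1 windows is chr10:41810324-41810623 on the plus strand, the Tmem140 window chr6:34862896-34863195 on the plus strand and the Tasor2 window chr13:3611059-3611358 on the minus strand.
Txnip: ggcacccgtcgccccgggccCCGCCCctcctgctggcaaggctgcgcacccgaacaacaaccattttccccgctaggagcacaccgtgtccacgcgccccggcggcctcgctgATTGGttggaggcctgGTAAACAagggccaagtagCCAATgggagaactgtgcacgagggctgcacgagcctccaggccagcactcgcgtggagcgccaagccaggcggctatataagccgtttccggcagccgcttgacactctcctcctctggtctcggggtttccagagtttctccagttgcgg
Frat2: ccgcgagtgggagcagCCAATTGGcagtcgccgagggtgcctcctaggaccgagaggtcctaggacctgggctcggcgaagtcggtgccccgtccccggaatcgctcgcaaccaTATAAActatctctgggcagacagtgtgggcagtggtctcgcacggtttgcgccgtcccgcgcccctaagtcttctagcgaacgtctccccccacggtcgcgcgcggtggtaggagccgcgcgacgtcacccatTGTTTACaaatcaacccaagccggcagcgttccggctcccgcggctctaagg
Dusp6: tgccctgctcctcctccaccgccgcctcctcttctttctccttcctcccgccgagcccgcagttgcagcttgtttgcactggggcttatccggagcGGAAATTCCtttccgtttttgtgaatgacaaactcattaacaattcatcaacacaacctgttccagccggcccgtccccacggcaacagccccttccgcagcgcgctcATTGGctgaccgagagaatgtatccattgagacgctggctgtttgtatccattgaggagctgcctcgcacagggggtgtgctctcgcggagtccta
Sesn1: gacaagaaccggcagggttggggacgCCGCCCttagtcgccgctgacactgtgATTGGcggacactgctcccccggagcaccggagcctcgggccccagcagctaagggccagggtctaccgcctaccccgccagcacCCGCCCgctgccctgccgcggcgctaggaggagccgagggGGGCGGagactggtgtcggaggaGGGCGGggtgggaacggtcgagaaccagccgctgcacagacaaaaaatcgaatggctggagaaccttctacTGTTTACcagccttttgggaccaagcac
Tmem140: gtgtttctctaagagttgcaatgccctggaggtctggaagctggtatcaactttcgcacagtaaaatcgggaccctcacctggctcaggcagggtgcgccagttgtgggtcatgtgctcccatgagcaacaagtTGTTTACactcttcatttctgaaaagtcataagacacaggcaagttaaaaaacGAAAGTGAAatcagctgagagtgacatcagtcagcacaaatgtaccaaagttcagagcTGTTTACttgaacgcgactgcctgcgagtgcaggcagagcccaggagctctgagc
Tasor2: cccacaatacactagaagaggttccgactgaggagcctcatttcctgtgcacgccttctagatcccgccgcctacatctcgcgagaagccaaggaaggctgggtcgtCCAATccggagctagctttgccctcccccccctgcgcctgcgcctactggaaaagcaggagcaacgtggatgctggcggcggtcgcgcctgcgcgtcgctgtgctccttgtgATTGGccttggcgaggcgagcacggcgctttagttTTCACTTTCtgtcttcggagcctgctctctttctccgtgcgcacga
The forkhead (FOX) core TGTTTAC or its reverse complement GTAAACA starts at base 130 in Txnip, 249 in Frat2, 273 in Sesn1, and 135 and 246 in Tmem140. An interferon-response-like match (GAAANNGAA) starts at base 188 in Tmem140 and at base 255 in Tasor2, and an NF-kB-like match (GGANTTTCC) at base 97 in Dusp6. The printed windows are not typical of the set in these motifs. Of the 115 matched members, 10 held the FOX core, 4 the NF-kB-like match and 8 the interferon-response-like match. The other Sesn1 window holds no FOX core. A match describes letters in the window and is no evidence of binding.

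The arrays carried deposited MAS5 signals with trimmed means of 499.9 on each array, and array medians at 0, 1 and 5 h of 113, 105 and 70.7 (wild type) and 117, 98.7 and 65.2 (knockout). Nfkbib, which encodes IκBβ, read 477, 3330 and 5007 on the wild-type arrays and 30.5, 136 and 56.1 on the knockout arrays at 0, 1 and 5 h; the position of its probes relative to the deletion was not known here. Macrophage genes were bright, with 9 of 9 measured markers, among them Lyz2, Cd14, Csf1r and Adgre1, above the array median. B cell markers summed to 3839, 2685 and 559 with wild-type cells and 3948, 2909 and 542 with knockout cells, mostly Ighm, with Pax5 and Ebf1 below the signal floor; this sum fell with LPS alongside the set, and its part in the set's fall was not tested. None of the genes in the 8 cell-type marker lists is a member. The Y-linked gene Eif2s3y read 570 to 860 on the wild-type arrays and at most 10.7 on the knockout arrays, and Xist read 52.1 to 80.4 against 2149 to 5634, so sex and genotype cannot be told apart.

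At 1 h the members had fallen by a median of 1.45 on the log2 scale. Below, 3 signals in a row are those at 0, 1 and 5 h. Txnip, whose protein binds thioredoxin and restrains glucose uptake, read 5570.1, 622 and 1045 with wild-type cells and 6224, 654 and 1839 with knockout cells. Frat2, which encodes a GSK-3-binding protein that favours WNT signalling, read 182, 11.9 and 9.27 with wild-type cells and 196, 5.44 and 7.12 with knockout cells. Cnr2, a cannabinoid receptor gene of immune cells, read 312, 24.6 and 4.71 with wild-type cells and 327, 45.6 and 3.18 with knockout cells. On both 1 h arrays the signals of these 3 genes lay far under both 0 h signals, and Frat2 at 1 h and 5 h and Cnr2 at 5 h lay below 18.2, the floor to which low signals were raised before log2 was taken. Changes of Frat2, and the 5 h change of Cnr2, are therefore lower bounds.

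Hhex, a homeobox factor gene of blood and endothelial lineages, read 1209, 149.5 and 221 with wild-type cells and 1214, 138 and 161 with knockout cells. Dusp6, whose phosphatase switches off ERK, read 909.9, 125 and 77.1 with wild-type cells and 799, 151 and 85.2 with knockout cells. Tmem140, a gene for a membrane protein, read 1249, 163 and 1769.6 with wild-type cells and 1225, 163 and 1709.8 with knockout cells. The wild-type and knockout series of Tmem140 nearly coincided, with a low at 1 h and 5 h signals above 0 h. Terf2ip, a telomere-binding protein gene, read 129, 9.97 and 25.1 with wild-type cells and 129, 15.5 and 43.6 with knockout cells. Rab40c, a Rab-like GTPase gene, read 755, 119.8 and 113 with wild-type cells and 849, 119 and 113 with knockout cells. Lipt2, which encodes a mitochondrial lipoyl transferase, read 122, 8.24 and 8.50 with wild-type cells and 106, 13.9 and 20.5 with knockout cells. Terf2ip and Lipt2 were at or below the floor on both 1 h arrays, while Rab40c held its level after 1 h. Pdik1l, a kinase gene, read 499, 89.5 and 79.2 with wild-type cells and 474, 83.0 and 87.4 with knockout cells and likewise held its 1 h level.

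The rule has a sharp edge. The genes just inside it, by the larger of their 1 h to 0 h ratios, were Med23 at 0.496, Ndst2 and Phf7 at 0.497 and Zdhhc12 at 0.4999. Just outside lay Tmem51 at 0.5003, Tbc1d14 and Ankrd54 at 0.503 and Cipc at 0.504. Members tended to have weak signals: 38 of 140 had a mean 0 h signal under 200, against 949 of 6657 genes with the same minimum, and 20 of 140 had 1000 or more, against 2200 of 6657. Another 51 probe sets of 39 members also had at least 100 at 0 h. Of these, 30 were halved in both genotypes and 50 lay below 0 h in both at 1 h. The other Sesn1 probe sets, at ratios of 0.312 and 0.312, and 0.379 and 0.274 in wild type and knockout, and that of Txnip, at 0.107 and 0.130, fell much as the chosen ones did. For Stx17 the 3 other probe sets were not halved, and 1 of them had a ratio of 1.49 in wild type and 0.948 in knockout. The other Nfic probe set had ratios of 0.580 and 0.685.

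By 5 h, 95 of the 140 genes were still at or below 0.5 of their 0 h signal in both genotypes, against 33.4% of the 6657 genes with a signal of at least 100 at 0 h. Another 28 had returned above that level in both (57.2% of those genes) and 17 lay above it in only 1 genotype (9.39%). Of the 28, 11 had regained or passed the 0 h signal in both genotypes, against 24.4% of genes. These shares were read from arrays that also chose the members, since the 0 h signals enter both. Fates here and in the classes below are those of the deposited scale, and they depend on it. After each array was centred on its median, 86 members also met the rule. On the deposited scale 66 of these were still halved and 11 returned, against 43 and 29 after centring. The median change from 0 h was −1.77 on the log2 scale, against −0.67 over the genes with the same 0 h minimum. The still-halved genes had a median of −2.24, the split ones −1.01 and the returned ones −0.20.

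**Figure D1:**
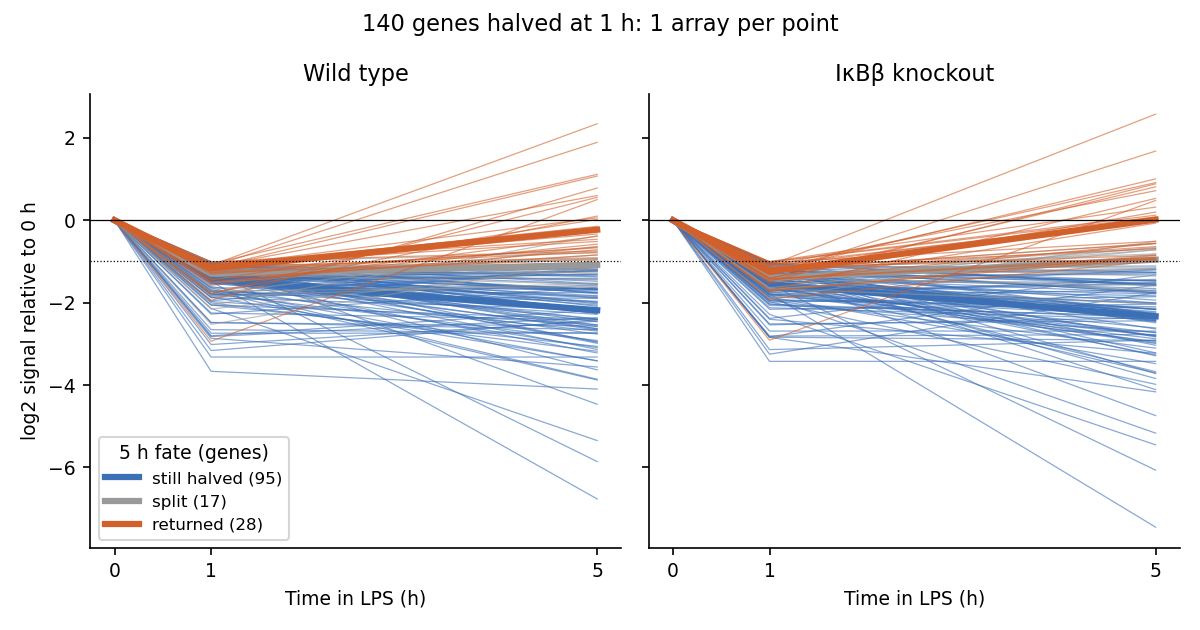
Log2 signal relative to 0 h (vertical axis) against hours in LPS (horizontal axis) for the 140 genes on the 3 wild-type and 3 knockout arrays, 1 array per point; thin lines are genes, thick lines the medians of each fate, and the dotted line marks 0.5 of the 0 h signal. All genes pass below the dotted line at 1 h by the rule, then spread between −7.45 and 2.58 at 5 h.

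A limma fit over all 7510 genes that passed an expression filter, with genotype and time as additive terms, called 121 of the 140 members lower at 5 h than at 0 h (adjusted p under 0.05), where 54% of all tested genes were called lower. It called 8 members higher, where 19.5% of all genes were, and left 11 uncalled. The 0 h arrays of this test are those that chose the members, so the test is not independent of the choice. All 140 members passed the filter. The median of all tested genes moved by −0.57 at 5 h on the deposited scale, by −0.22 after quantile normalization and by 0.20 after each array was centred on its median; the members' median minus it was −1.20, −0.83 and −1.20. Calls split into 121 lower and 8 higher members on the deposited scale, 98 and 10 after quantile normalization, and 92 and 14 after centring. Centring thus lost 29 of the 121 lower calls, and 103 of the 121 were kept without each array in turn. The classes below give how many of their lower calls were kept after centring. Over all genes, 26.5% of calls were higher on the deposited scale, 39.3% after quantile normalization and 59.1% after centring. Without the knockout 0 h array, 4 of the 8 higher genes were still called: Atg16l1, Tasor2, Themis2 and Tmem229b. In RNA from a whole culture, fewer cells of a type and less RNA per cell cannot be told apart.

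**Figure D2:**
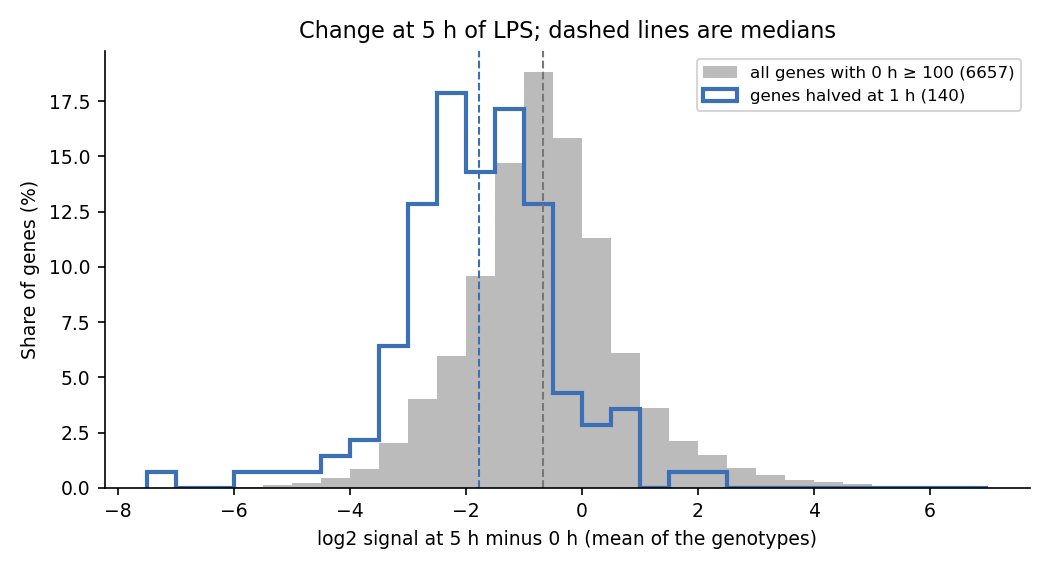
Share of genes (vertical axis, percent) by log2 change from 0 h to 5 h, mean of the genotypes (horizontal axis), for the 140 halved genes (blue outline) and all 6657 genes with at least 100 at 0 h (grey). The dashed medians stand at −1.77 and −0.67.

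Between 1 h and 5 h the set moved in both directions, with a median change of −0.19 against −0.38 over all tested genes. In the same limma fit 44 members fell further (adjusted p under 0.05), where 45.4% of all genes were called lower, and 31 rose, where 18.5% were called higher, while 65 were not called. Both counts depend on the array scale: after quantile normalization 28 fell and 55 rose, and after centring 25 fell and 61 rose. Higher calls made up 41.3% of member calls and 29% of the calls over all genes on the deposited scale. They made up 66.3% and 42% after quantile normalization, and 70.9% and 60.3% after centring. Without the knockout 1 h array 17 rose in place of 31. The 1 h arrays of this test chose the members for low signals. By signal alone, 65 genes lay below their 1 h signal at 5 h in both genotypes, where 63.5% of all genes with at least 100 at 0 h did, and 47 lay above it, where 26% did. At 5 h 23 members read at most 0.5 of their 1 h signal in both (23.9% of those genes did) and 13 at least 2-fold more (6.82%), 11 of the 13 being among the returned genes. At 5 h, 8 members were at the floor on both arrays and 10 on 1 array, so that their falls are lower bounds.

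The members were sorted by known function into 10 classes, assigned by hand after their names and values had been seen, with 21 genes left over. Among the 17 genes for receptors, kinases and signalling regulators, 14 were still halved at 5 h, 1 had returned and 2 were split, with a median change of −2.55. The limma fit called 16 of them lower than at 0 h, 14 of which were kept after centring, and 1 higher. Sesn1, a sestrin gene whose protein restrains mTORC1, read 3681, 1317 and 33.8 with wild-type cells and 3605, 1046 and 20.6 with knockout cells. It fell in both intervals, and its 5 h change was a drop of 7.11 ± 0.20 (SE) on the log2 scale by 5 h (limma, adjusted p = 0.000321) and was the largest fall among members above the floor at 5 h. Il16, the gene of a cytokine precursor, read 979, 314 and 67.5 with wild-type cells and 1119.9, 285 and 70.9 with knockout cells and fell by 3.92 ± 0.13 (adjusted p = 0.000321). Cnr2 fell by at least 4.13 (adjusted p = 0.000578), and at 5 h it was below the floor on both arrays.

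Flcn, whose folliculin protein acts on the Rag GTPases, read 1136, 396 and 215 with wild-type cells and 1194, 527 and 192 with knockout cells and fell by 2.52 ± 0.17 by 5 h (limma, adjusted p = 0.000676). Mlst8, a subunit gene of both mTOR complexes, read 165, 61.5 and 62.2 with wild-type cells and 151, 52.3 and 32.4 with knockout cells and fell by 1.81 ± 0.24 (adjusted p = 0.00331).

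Dusp6 fell by 3.39 ± 0.15 (limma, adjusted p = 0.000374), after a fall of 2.63 at 1 h. Frat2 fell by at least 3.37 (adjusted p = 0.000321) and Rab40c by 2.82 ± 0.11 (adjusted p = 0.000337). Rab40c was not called different between 1 h and 5 h. For Frat2 that comparison could not give a call, since its signals at both times lay below the floor. Dnmbp, an exchange-factor gene for Cdc42, read 144, 63.5 and 4.67 with wild-type cells and 176, 67.9 and 3.14 with knockout cells and was at the floor on both 5 h arrays. Mapk7, which encodes the kinase ERK5, read 266, 111 and 139 with wild-type cells and 303, 113 and 101 with knockout cells, and Rit1, a Ras-like GTPase gene, read 1169, 473 and 492 with wild-type cells and 1139, 483 and 476 with knockout cells, and neither was called between 1 h and 5 h (adjusted p = 0.722 and 0.888). The calls of Mapk7 and Vps9d1 against 0 h were lost after centring, at −0.49 and −0.18. Themis2, whose adaptor protein works in B cells and macrophages, went the other way with 1827, 857 and 9275 with wild-type cells and 1881, 879 and 11229 with knockout cells. It dipped at 1 h and then rose by 2.46 ± 0.12 above 0 h (limma, adjusted p = 0.000401), and both 5 h signals exceeded every earlier one.

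Of the 17 transcription factor and cofactor genes, 11 were still halved, 2 had returned and 4 were split, with a median of −2.21, and limma called 16 lower than at 0 h, 10 of which were kept after centring, and 1 higher. Nfic, a nuclear factor I gene, read 1058, 449 and 6.15 with wild-type cells and 1222, 415 and 7.81 with knockout cells, below the floor on both 5 h arrays. Its fall was at least 5.96 (limma, adjusted p = 0.000321). Tsc22d3, the glucocorticoid-induced leucine zipper gene, which restrains inflammatory signalling, read 958, 217 and 23.5 with wild-type cells and 1172, 241 and 26.8 with knockout cells and fell by 5.40 ± 0.11 (adjusted p = 0.000321). Atmin, whose product interacts with the kinase ATM, read 449.7, 136 and 30.6 with wild-type cells and 376, 177 and 21.8 with knockout cells and fell by 3.99 ± 0.24 (adjusted p = 0.000525). In these 3 genes the second interval took the signal down further than the first.

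Lyl1, a basic helix-loop-helix gene of blood cells, read 1651, 453 and 155 with wild-type cells and 1681, 459 and 46.8 with knockout cells and fell by 4.29 ± 0.51 (limma, adjusted p = 0.00249), and at 5 h the knockout signal was lower than that of wild type by 1.73. Mnt, whose protein is a MAX-binding repressor that opposes MYC, read 1065, 322 and 165 with wild-type cells and 1105, 422 and 86.5 with knockout cells and fell by 3.18 ± 0.35 (adjusted p = 0.00208). Hhex fell by 2.68 ± 0.15 (adjusted p = 0.000489), after a fall of 3.08 at 1 h. Of the BTB zinc finger genes, Zbtb14 read 499, 105 and 93.4 with wild-type cells and 558, 137 and 84.6 with knockout cells, and Zbtb1 and Zbtb45 fell by 1.21 ± 0.19 and 1.00 ± 0.13 (adjusted p = 0.00584 and 0.003). After centring Zbtb1 stood at −0.45 and Zbtb45 at −0.24, and neither was called (adjusted p = 0.112 and 0.168). The THAP-domain genes parted: Thap11 fell by 2.21 ± 0.13 (adjusted p = 0.000484) and stayed down, and Thap7, which read 426, 150.4 and 259.7 with wild-type cells and 442, 165 and 231 with knockout cells, had returned and stood at −0.06 after centring. Sertad3, a transcriptional coregulator gene, read 355, 92.3 and 612 with wild-type cells and 444, 159 and 819 with knockout cells and rose by 0.84 ± 0.15 over 0 h (adjusted p = 0.00926). Without the knockout 0 h array its rise was 0.69 with an adjusted p of 0.0642, and without the wild-type 5 h array 0.77 with 0.0542.

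The remaining factor genes Zkscan5, Nr2c2ap, Purg, Pnrc2 and E4f1 were lower than at 0 h by 2.64, 1.85, 1.50, 1.22 and 1.19. The Purg call was lost without either 0 h array or the wild-type 5 h array (adjusted p = 0.0512 to 0.129), and that of Pnrc2 without the wild-type 0 h array (adjusted p = 0.0537). After centring Purg, Pnrc2 and E4f1 were not called (adjusted p = 0.119, 0.169 and 0.173). Pnrc2, whose protein couples nuclear receptors and mRNA decapping, and Cnr2 are neighbours on chromosome 4, the only pair of members next to each other in the RefSeq gene order.

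**Figure D3:**
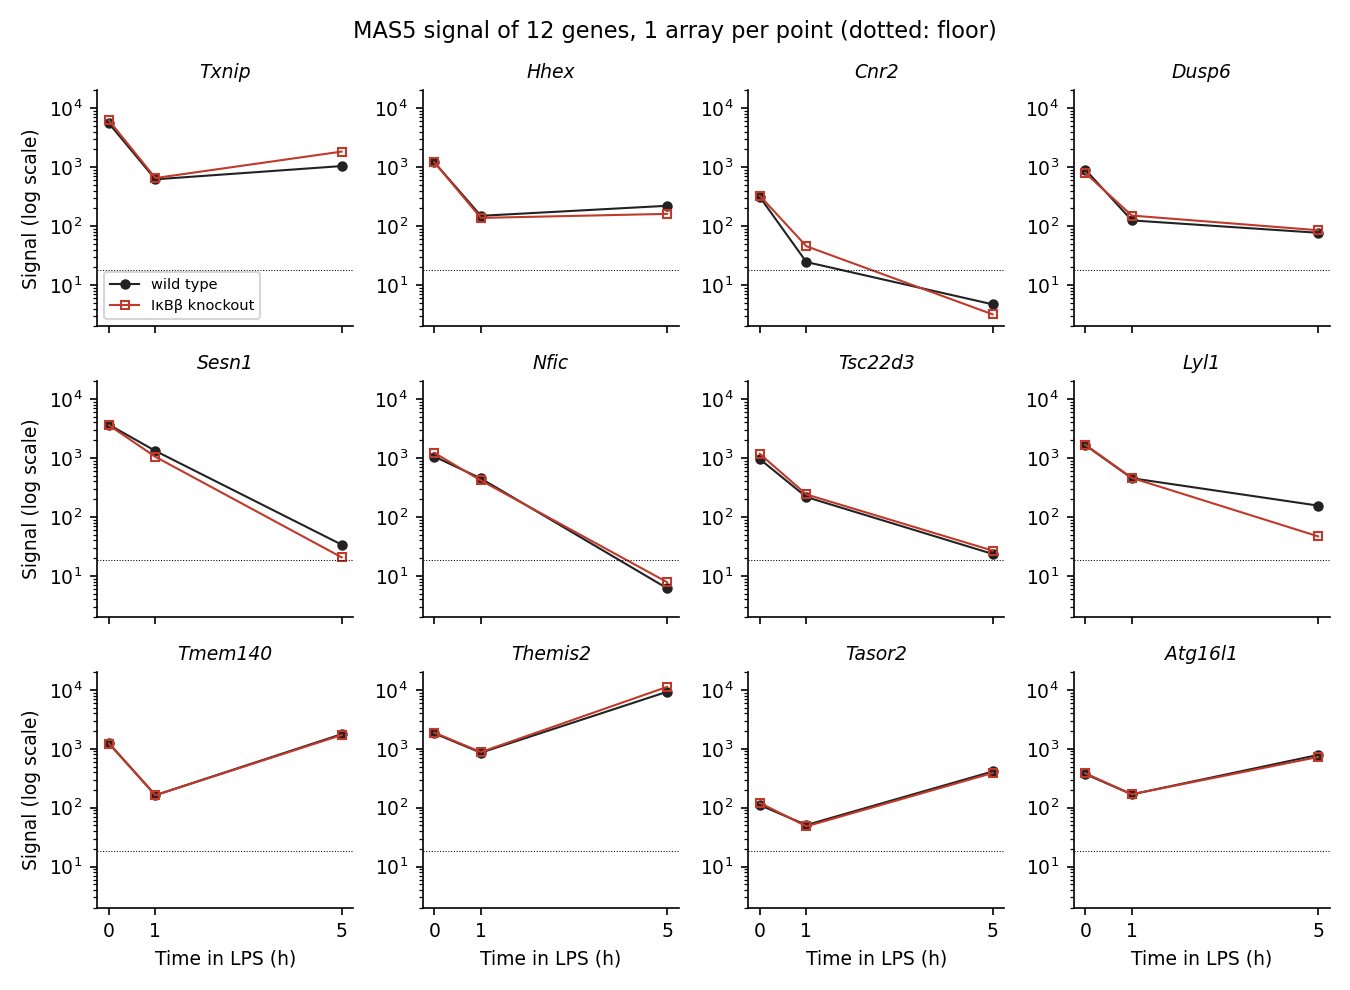
Signal on a log scale (vertical axis) against hours in LPS (horizontal axis) for 12 genes, wild type as filled circles and knockout as open squares, 1 array per point, with the floor of 18.2 dotted. Upper row, genes that fell steeply at 1 h; middle row, genes that fell further by 5 h, Sesn1 to 33.8 and 20.6; lower row, genes above their 0 h signal at 5 h, Themis2 at 9275 and 11229.

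The 11 chromatin and polymerase genes had a median of −1.51, with 6 still halved, 4 returned and 1 split, and limma called 9 lower, 6 of which were kept after centring, 1 higher and 1 neither way. Among polycomb-group genes, which keep developmental genes silent, Asxl1 read 468, 185 and 131 with wild-type cells and 529, 157 and 75.6 with knockout cells and Pcgf1 253, 88.2 and 77.3 with wild-type cells and 252, 80.0 and 70.9 with knockout cells. Asxl1 fell by 2.32 ± 0.26 (limma, adjusted p = 0.00216), Pcgf1 by 1.77 ± 0.11 (adjusted p = 0.000518) and Cbx2 by 2.01 ± 0.32 (adjusted p = 0.00582). These 3 polycomb members were thus each called lower, where 54% of all tested genes were. A second Asxl1 probe set was at 0.725 and 0.721 of 0 h at 1 h and so was not halved. Its signals at 0 h and 5 h were 300 and 182 with wild-type cells and 262 and 131 with knockout cells.

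Genes that serve each of the 3 nuclear RNA polymerases were represented. Gtf3c4, of the factor TFIIIC for RNA polymerase III, read 326, 98.2 and 83.4 with wild-type cells and 374, 98.2 and 87.2 with knockout cells and fell by 2.03 ± 0.11 (limma, adjusted p = 0.000453). Taf1c, of the RNA polymerase I selectivity factor, read 194, 80.3 and 95.7 with wild-type cells and 189, 61.0 and 115 with knockout cells and lost its 5 h call after centring, at −0.11. Mepce, whose enzyme caps the 7SK RNA that restrains RNA polymerase II elongation, read 593, 208 and 239 with wild-type cells and 496, 216 and 151 with knockout cells. Ints5 of the Integrator complex and Med23 of Mediator had returned and were lower than 0 h by 0.70 and 0.69 (adjusted p = 0.00788 and 0.00992), and both changes turned to 0.06 and 0.07 after centring. The Ints5 call was also lost without the wild-type 0 h array (adjusted p = 0.0690). Tasor2, related to a subunit of the HUSH silencing complex, read 111, 50.8 and 412 with wild-type cells and 121, 48.3 and 388 with knockout cells and rose by 1.79 ± 0.12 over 0 h (adjusted p = 0.000593), while H2aw, a histone gene, was −0.08 from 0 h at 5 h (adjusted p = 0.602).

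The 13 genes for RNA processing, RNA modification and ribosome assembly had the smallest median fall of the classes, −1.24, and limma called all 13 lower at 5 h on the deposited scale, but 7 after quantile normalization and 6 after centring; 7 were still halved, 4 returned and 2 split. Apobec1, whose cytidine deaminase edits RNA, read 4379, 1347 and 900.3 with wild-type cells and 4116, 1584 and 1213 with knockout cells and fell by 2.02 ± 0.16 (limma, adjusted p = 0.000938). The tRNA genes Tsen15, of the splicing endonuclease, Lcmt2, a modifying enzyme, and Kti12, an Elongator partner, fell by 1.91 ± 0.21, 1.85 ± 0.16 and 1.33 ± 0.25 (adjusted p = 0.00218, 0.00121 and 0.00963). Genes of ribosome assembly, Utp25, Ppan and Surf6, fell by 1.98, 1.53 and 1.08. Kti12 and Surf6 were not called after centring, at −0.56 and −0.31 (adjusted p = 0.0741 and 0.182). Clk2, a kinase gene for splicing factors, read 600.2, 211 and 274 with wild-type cells and 656, 209 and 285 with knockout cells and fell by 1.17 ± 0.10 (adjusted p = 0.00124). It was called higher at 5 h than at 1 h, by 0.41 ± 0.10 (adjusted p = 0.0276). Cmtr2, a cap methyltransferase gene, was split between the genotypes at −1.24, and at −0.48 after centring (adjusted p = 0.130). Sugp2, Rpp25l, Snrnp48 and Rsrp1 had returned, at −0.85, −0.74, −0.73 and −0.62, and after centring were at −0.09, 0.02, 0.03 and 0.14. The Rsrp1 call was lost without any 1 of the 1 h arrays or the knockout 0 h or 5 h array (adjusted p = 0.0510 to 0.143).

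Mitochondrial genes numbered 15, of which 10 were still halved, 2 returned and 3 split, with a median of −1.70, and limma called 14 lower than at 0 h, of which 10 were kept after centring. Most serve expression of the mitochondrial genome. Tfam, the packaging and transcription factor gene of mitochondrial DNA, read 411, 193 and 194 with wild-type cells and 475, 206 and 321 with knockout cells and fell by 0.82 ± 0.19 (limma, adjusted p = 0.0185). That call was lost without the wild-type 0 h array (adjusted p = 0.0945), without the knockout 0 h array (0.0543) and after centring, where the change was −0.06. The mitochondrial ribosomal protein genes parted: Mrpl49 read 272, 112 and 65.2 with wild-type cells and 259, 102 and 93.6 with knockout cells, and Mrpl44 read 826, 345 and 519.9 with wild-type cells and 848, 309 and 574 with knockout cells, no longer halved. After centring, Mrpl44 stood at 0.15.

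Genes for mitochondrial tRNA charging and RNA modification fell, Qrsl1 by 2.08 ± 0.11, Mrm1 by at least 2.41, Rpusd4 by 1.61 ± 0.27 and Pars2 by 1.49 ± 0.48 (limma, adjusted p = 0.000454, 0.0137, 0.00691 and 0.0477). Pars2 was not called after centring, at −0.73 (adjusted p = 0.157). Ngrn, needed for mitochondrial ribosomal RNA, read 462, 185 and 104 with wild-type cells and 336, 149.6 and 41.1 with knockout cells. Nmnat3, a mitochondrial NAD enzyme gene, read 166, 71.7 and 27.7 with wild-type cells and 169.8, 77.4 and 8.14 with knockout cells, and Etfbkmt, a methyltransferase gene of the matrix, fell by at least 2.79 to below the floor. Lipt2 fell by at least 2.55 (adjusted p = 0.000435), with all 4 LPS signals near the floor. Mettl17, Msrb2 and Timm29 changed by −1.47, −1.70 and −0.90, and Timm29 stood at −0.14 after centring. A second Mettl17 probe set was not halved at 1 h. It read 127, 72.3 and 77.7 with wild-type cells and 145, 86.6 and 136 with knockout cells. Ptcd1, a pentatricopeptide RNA-binding protein gene, read 142, 41.7 and 153 with wild-type cells and 105, 32.4 and 152 with knockout cells, was called higher at 5 h than at 1 h, by 2.05 ± 0.15 (adjusted p = 0.00113), and was not called against 0 h at 0.32 ± 0.15 (adjusted p = 0.122).

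Among 16 genes of redox, metabolic and glycan enzymes and their regulators, 12 were still halved and 4 had returned, with a median of −2.08. Limma called 12 lower, all kept after centring, 2 higher and 2 neither way. Txnip recovered in part between 1 h and 5 h, rising by 1.12 ± 0.22 (limma, adjusted p = 0.0138), and remained 2.09 ± 0.22 lower than at 0 h (adjusted p = 0.0019). Osgin1, an oxidative-stress-induced growth inhibitor gene, read 625, 111 and 106 with wild-type cells and 542, 177 and 107 with knockout cells, and Akr1b10, an aldo-keto reductase gene, read 216, 53.9 and 23.9 with wild-type cells and 273, 38.8 and 39.9 with knockout cells. Osgin1 is a known target of the antioxidant factor NRF2. Both stayed down at 5 h, by 2.45 ± 0.24 and 2.98 ± 0.32 (adjusted p = 0.00158 and 0.00192).

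Natd1, Abhd15 and Hyi halved again after 1 h; Abhd15, a lipid-metabolism gene, read 241, 101 and 27.4 with wild-type cells and 262, 109 and 14.4 with knockout cells. Ogt, whose enzyme adds N-acetylglucosamine to intracellular proteins, read 1334, 646 and 396 with wild-type cells and 1476, 491 and 361 with knockout cells and fell by 1.89 ± 0.17 (limma, adjusted p = 0.00115). Of 4 other Ogt probe sets, 1 was halved in both genotypes. Glycan genes differed in fate: Pomk, Nanp and B3galt4 fell by 2.08, 2.07 and 1.53, and Ndst2, a heparan sulfate sulfotransferase gene, read 815, 374 and 850.2 with wild-type cells and 816, 406 and 889 with knockout cells and was back at 0 h level. Nat2, an arylamine N-acetyltransferase gene, read 403, 185 and 610.5 with wild-type cells and 457, 212 and 751 with knockout cells and rose by 0.66 ± 0.10 over 0 h (adjusted p = 0.00564). Phospho2, a phosphatase gene, read 461, 135 and 679 with wild-type cells and 494, 208 and 992 with knockout cells and rose by 0.78 ± 0.17 (adjusted p = 0.0153). Without the knockout 0 h array Nat2 stood at 0.62 (adjusted p = 0.0587) and Phospho2 at 0.54 (adjusted p = 0.0830), and the Phospho2 call was also lost without either 5 h array (adjusted p = 0.0514 and 0.0854). Tmppe and Nudt16 fell by 2.36 and 1.73.

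The 8 autophagy and membrane traffic genes had a median of −1.56, with 5 still halved and 3 returned, and limma called 5 lower, all kept after centring, 1 higher and 2 neither way. Atg16l1, which is needed to lipidate LC3 on the autophagosome, read 373, 168 and 785 with wild-type cells and 384, 169 and 724 with knockout cells and rose by 0.99 ± 0.11 over 0 h (limma, adjusted p = 0.00196). Atg14, a subunit gene of the kinase complex that starts autophagosomes, read 349, 123 and 111 with wild-type cells and 369, 148 and 96.3 with knockout cells and fell by 1.80 ± 0.15 (adjusted p = 0.00109). Stx17, the SNARE gene for fusion of autophagosomes with lysosomes, read 394, 178 and 63.3 with wild-type cells and 394, 190.0 and 29.9 with knockout cells, while its 3 other probe sets, given above, were not halved at 1 h. Gorasp1, a Golgi stacking protein gene, Tor2a and Ccdc115 fell by 3.03 ± 0.35, 2.11 ± 0.21 and 1.33 ± 0.13 (adjusted p = 0.00245, 0.00155 and 0.00149). The other Tor2a probe set was at 0.751 and 0.743 of 0 h at 1 h and so was not halved. Bnip1 and Ap3m2 were not called against 0 h at −0.35 and −0.13, and both changes turned positive after quantile normalization (0.41 and 0.50) and after centring (0.41 and 0.64).

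The 6 cell death genes included 2 initiator caspases. At 5 h 4 of the 6 were still halved, 1 had returned and 1 was split. Limma called 5 lower than at 0 h, 4 of which were kept after centring, and 1 neither way. Casp9, the caspase of the apoptosome, read 327, 107 and 38.4 with wild-type cells and 314, 127 and 44.2 with knockout cells and fell by 2.96 ± 0.13 (limma, adjusted p = 0.000355). Casp2 read 617, 265 and 269.5 with wild-type cells and 796, 375 and 332 with knockout cells and fell by 1.23 ± 0.11 (adjusted p = 0.00127), with no call between 1 h and 5 h (adjusted p = 0.589). Bid, whose cleaved protein carries death-receptor signals to mitochondria, read 942, 345 and 957 with wild-type cells and 939, 356 and 1078 with knockout cells, at or above its 0 h signal in both genotypes. Casp8ap2 at least doubled from 1 h to 5 h in both genotypes and was −0.82 from 0 h, or −0.06 after centring, while Bag4 and Triap1, both antiapoptotic, fell by 2.18 ± 0.12 and 1.55 ± 0.11 (adjusted p = 0.000478 and 0.000775).

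All 8 genes of genome maintenance and cell division were called lower at 5 h by limma on the deposited scale, and 7 of them were still halved. After centring 6 were called: Fancf was at −0.71 (adjusted p = 0.0731) and Mad2l1bp at −0.19 (adjusted p = 0.488). Tdp2, which removes topoisomerase II from DNA ends, read 375, 145 and 71.2 with wild-type cells and 384, 123 and 48.3 with knockout cells and fell by 2.69 ± 0.18 (limma, adjusted p = 0.000604). Skp2, the F-box subunit that marks the cell-cycle inhibitor p27 for degradation, read 183, 76.9 and 23.8 with wild-type cells and 219, 53.4 and 42.8 with knockout cells and fell by 2.65 ± 0.35 (adjusted p = 0.0034). Rad1 of the checkpoint clamp, Fancf of the Fanconi anaemia core complex and Slf2 fell by 1.70 ± 0.15, 1.47 ± 0.30 and 1.17 ± 0.12 (adjusted p = 0.00112, 0.0123 and 0.00187). Terf2ip, below the floor on both 1 h arrays, was 1.97 ± 0.25 lower at 5 h than at 0 h (adjusted p = 0.00289). Haus3, of the mitotic augmin complex, and Mad2l1bp changed by −1.54 and −0.96.

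Of 8 ubiquitin ligase and adaptor genes, 5 were still halved, 1 had returned and 2 were split, and limma called 7 lower, 5 of which were kept after centring. The CUL3 adaptor genes Klhl21 and Klhl42 fell by 2.91 ± 0.38 and by at least 2.67 (limma, adjusted p = 0.00331 and 0.000451). Trim59 read 104, 28.2 and 23.1 with wild-type cells and 118, 6.62 and 17.2 with knockout cells, Trim32 read 195, 96.8 and 79.3 with wild-type cells and 192, 73.0 and 117 with knockout cells and Trim11 read 306, 124 and 195 with wild-type cells and 298, 135 and 185 with knockout cells. These TRIM genes ended in different places: Trim59 stayed near the floor, Trim32 was halved in wild type only and stood at −0.25 after centring, and Trim11 had returned in both, with its 5 h change of −0.67 turning to 0.09 after centring. Ubr7 and Tmem129 fell by 1.49 ± 0.14 and 1.40 ± 0.11 (adjusted p = 0.00148 and 0.000815). Ubox5 was not called at −0.77 ± 0.44 (adjusted p = 0.18), and its change was 0.01 after quantile normalization.

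**Figure D4:**
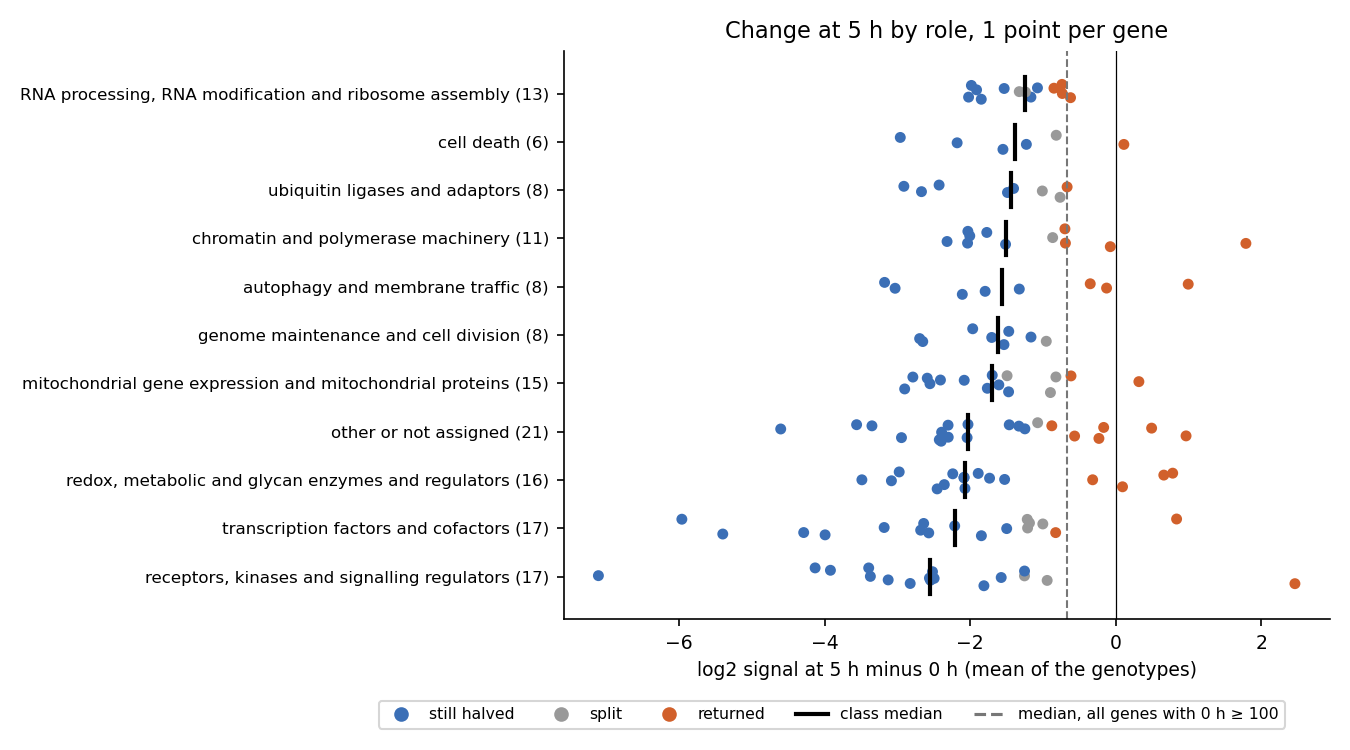
Log2 change from 0 h to 5 h, mean of the genotypes (horizontal axis), for each member (points, coloured by fate) in the 10 classes and the unassigned genes, with the number of genes in parentheses. Black bars are class medians, from −2.55 for signalling genes to −1.24 for RNA processing genes; the dashed line at −0.67 is the median of all genes with at least 100 at 0 h.

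The 21 genes without a class held some of the extremes. Marveld1, a gene for a nuclear protein of the MARVEL family, read 403, 192 and 7.35 with wild-type cells and 488, 199 and 7.18 with knockout cells and fell by at least 4.60 by 5 h (limma, adjusted p = 0.000321). Its other probe set was not halved at 1 h, at 0.834 and 0.640 of 0 h, and read 71.6 and 79.1 at 5 h. The uncharacterized C87436 read 217, 67.6 and 20.3 with wild-type cells and 238, 81.3 and 7.47 with knockout cells, and Pisd-ps3, a pseudogene that shares sequence with Pisd, read 1774, 706 and 373 with wild-type cells and 2752, 1087 and 537 with knockout cells. Its signal cannot be assigned to this gene with certainty: another probe set, listed for both Pisd-ps1 and Pisd-ps3, also halved, while a second one of its own did not, at 0.655 and 0.502 of 0 h. Tmem140 rose by 0.49 ± 0.10 over 0 h (adjusted p = 0.0121), and Tmem229b, with 583, 281 and 1264 with wild-type cells and 710.3, 267 and 1249 with knockout cells, rose by 0.97 ± 0.14 (adjusted p = 0.00416). The Tmem140 call was lost without either 0 h array, where its change was 0.49 each time with adjusted p of 0.0969 and 0.100. Ccdc117, Tmem101 and 4921524J17Rik were not called at −0.57, −0.23 and −0.17, and these 3 changes turned positive after quantile normalization and after centring. Mfap3 read 1505, 694 and 802 with wild-type cells and 1585, 706 and 879 with knockout cells, and stood at −0.12 after centring. The other 12, among them Cdpf1, Cacfd1, Ier5l, Calhm2 and Arl14ep, changed by between −3.35 and −1.07. A second Arl14ep probe set also halved at 1 h but differed in fate. It read 200, 94.0 and 209 with wild-type cells and 227, 110 and 328 with knockout cells.

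The 8 genes called above 0 h at 5 h were thus Themis2, Tasor2, Atg16l1, Tmem229b, Sertad3, Phospho2, Nat2 and Tmem140. They come from 5 of the classes, with Tmem140 and Tmem229b in none, and Themis2 and Tasor2 at least doubled from 0 h in both genotypes. All 8 were also called higher at 5 h than at 1 h. After quantile normalization and after centring the same 8 were called higher than 0 h, joined by Ap3m2 and Ptcd1 in the first case and by those and 4921524J17Rik, Bid, H2aw and Ndst2 in the second.

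The members make up 1.86% of all tested genes, which is the background for their number in each list of pathway genes. The lists are not complete, so each count holds for the listed genes only. Among 26 tested FoxO and quiescence-linked genes, 3 are members (Sesn1, Tsc22d3, Txnip). Of the 23 others limma called 1 lower and 6 higher at 1 h, where 5.91% and 5.42% of all tested genes were, and 16 lower and 4 higher at 5 h, where 54% and 19.5% were. Foxo3 itself fell by 0.76 at 1 h and by 2.75 at 5 h (limma, adjusted p under 0.05 for both), and Sesn3 by 2.55 at 5 h. Bcl6, Btg2, Cited2 and Ddit4 of the same list rose at 1 h by 1.72, 2.15, 1.46 and 1.30.

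Of 71 E3 ubiquitin ligase and F-box genes, Trim11, Trim32 and Trim59 are members. Limma called 7 of the 68 others lower at 1 h, among them Trim39 (−1.35), Trim23 (−1.04) and Fbxo28 (−0.99), and 5 higher; at 5 h 38 were lower and 16 higher. Fancf is the member among 48 DNA repair genes, and of the 47 others 3 were lower at 1 h, and 32 lower and 4 higher at 5 h. Corepressor and BTB zinc finger genes numbered 28 with the members Zbtb1 and Zbtb14; of the 26 others 1 was lower at 1 h, Zkscan3 (−0.94), and 15 lower and 6 higher at 5 h. The Ras and MAP kinase list of 46 holds Mapk7 and Sh2d3c, and of its 44 other genes 3 were lower and 6 higher at 1 h, and 26 lower and 10 higher at 5 h. The shares of all tested genes are those given for the FoxO list. WNT genes (25, Frat2), macrophage receptors (31, Cnr2), lineage transcription factors (43, Hhex) and alpha-arrestins (8, Txnip) each held 1 member. No member was among the listed 20 BMP and TGF-β genes, 23 PI3K and mTOR genes, 37 histone modifiers or 39 mRNA decay genes. Some members with such functions are not in the lists, among them Mlst8 of the mTOR complexes and Pnrc2, linked to mRNA decapping. Also outside the lists are Rad1, Tdp2 and Slf2 of genome maintenance and the BTB zinc finger gene Zbtb45. The same holds for Skp2, Ubr7, Tmem129 and Ubox5 of the ubiquitin genes.

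At 0 h no member differed between the genotypes by 2-fold, where 0.195% of the 6657 genes with at least 100 at 0 h did. At 5 h, 2 members were at least 2-fold higher in knockout (1.78% of tested genes were) and 3 at least 2-fold lower (3.06%), and the SD over genes of knockout minus wild type was 0.49 for members and 0.48 for tested genes. The limma fit called no member for genotype over the 3 times, neither higher (0% of genes) nor lower (0.0133%), while 7 members (5%) had an unadjusted p under 0.05, where 8.39% of tested genes did. Lyl1 was lower in knockout at 5 h by 1.73 and Ngrn by 1.34, and Stx17 by 1.08. The 3 other Stx17 probe sets did not repeat this 2-fold difference. Wild type gave them 5 h signals of 42.2, 74.2 and 103, and knockout gave 50.2, 66.0 and 92.4. The first of these probe sets was thus higher in knockout. Higher in knockout were Mrm1, at least 1.44, and Zdhhc12, at 1.06. Zdhhc12, a palmitoyltransferase gene, read 251, 104 and 129 with wild-type cells and 216, 108 and 269.8 with knockout cells. Mnt and Tor2a, at −0.93 and −0.92, and Txnip, at 0.82, were also named by size among genes above the floor with a bright signal. The other Tor2a probe set was not lower in knockout at 5 h, with 74.3 in wild type and 85.2 in knockout. That of Txnip was higher in knockout, with 1031 and 1596. Calhm2, Rpusd4, Tfam, Pnrc2, E4f1 and Purg ranged from −0.84 for Calhm2 to 0.73 for Tfam. Each is the difference of 2 arrays and carries no test.

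**Figure D5:**
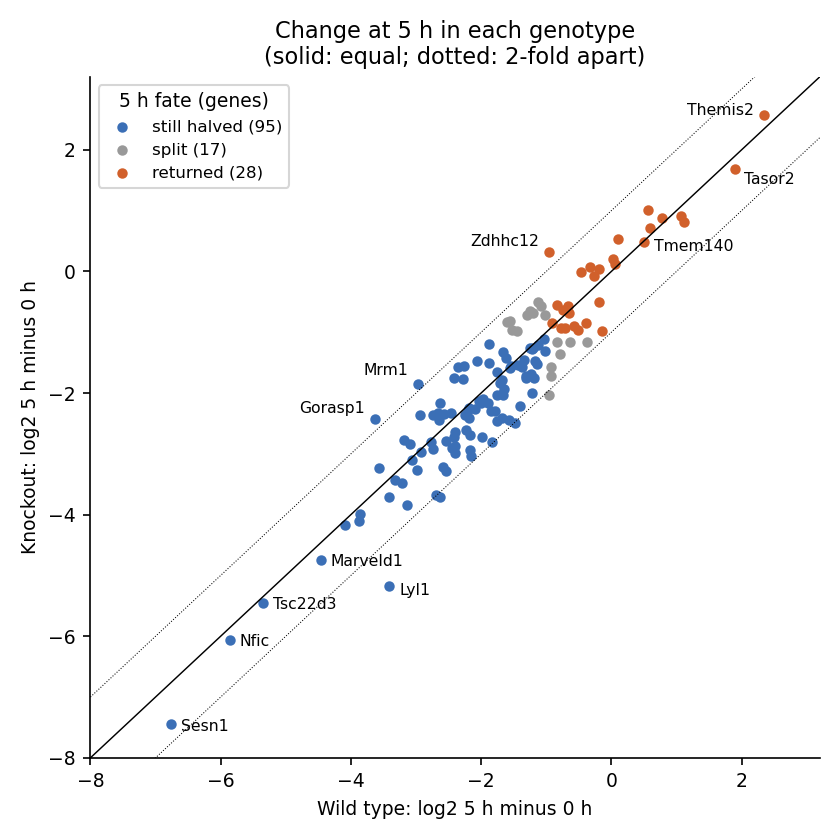
Log2 change from 0 h to 5 h in knockout (vertical axis) against that in wild type (horizontal axis), 1 point per member, coloured by fate; the solid line marks equal change and the dotted lines a 2-fold difference. Points beyond the dotted lines include Lyl1 below and Zdhhc12, Gorasp1 and Mrm1 above.

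Promoter composition was close to that of other expressed genes. The median GC content was 59.7% for the 115 matched members, 61% for 5539 matched genes with at least 100 at 0 h and 52.7% for all 27025 genes in the RefSeq table, and the median ratio of observed to expected CpG was 0.782, 0.788 and 0.389. The FOX core TGTTTAC was present in 10 members (8.70%), against 3.16% of the expressed genes and 4.05% of all. These are Txnip, Sesn1, Frat2, Tmem140, Akr1b10, Cacfd1, Gpr146, Mfap3, Mrpl44 and Rsrp1. They made up 6 of 79 still-halved genes with a window (7.59%), 4 of 21 returned ones (19.0%) and 0 of 15 split ones. The NF-kB-like GGANTTTCC was in 4 members (3.48%, against 1.70% and 1.45%), and the GAAANNGAA match in 8 (6.96%, against 8.74% and 9.76%), 3 of them among the 21 returned genes with a window. The other motifs were held by similar shares of members and of expressed genes: CACGTG by 12.2% and 13.1%, GGGCGG by 68.7% and 71.5%, CCAAT by 44.3% and 42.9%, GGAAGT by 33.0% and 35.4%, TGANTCA by 6.09% and 6.16%, and TGACGTCA by 3.48% and 3.70%. TATAAA was in 6.96% and 8.49%, GCGCATGC in 3.48% and 6.82%, and AAGATGGC in 5.22% and 6.45%. Motif searches ran on both strands, and some matches overlap, as the CCAAT boxes in the Frat2 window do.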

How the data were processed

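The values are intensity on a linear scale: MAS5 signals that the authors deposited, with MAS5 named in the submitters' processing notes and its version and scaling target not given in the sources used here. Trimmed means of 499.9 show that the arrays had been scaled alike. Probe sets with 1 gene symbol (20393 of 22690) were used, and each gene was represented by the probe set with the highest mean. A floor of 18.2, the 25th percentile over all arrays, replaced lower signals before log2.

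Genes above the array median on at least 1 array (7510) were fitted in R 4.3.3 with limma 3.58.1, using additive effects of genotype and time; residual degrees of freedom were 2 and those of the prior 2.18. The number of arrays, 1 for each genotype and time, limits the precision. P-values were Benjamini-Hochberg adjusted over all genes. Differences between genotypes at 1 time are values without a test. The fit was tested on simulated data. A gene was still halved at 5 h if at most 0.5 of 0 h in both genotypes, returned if above this in both, and split otherwise.

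The members and gene lists were chosen with earlier results of these data known, and the functional classes after member values were seen. Genes were named by rule: the 10 largest falls at 1 h, the 8 largest rises from 1 h to 5 h, the 8 lowest and 8 highest changes at 5 h, the 6 largest genotype differences each way (neither signal at or under the floor, 1 of them brighter than the median of its array), the 10 brightest, the 4 on each side of the threshold, and members sharing a function. Other genes were chosen after their values were seen, as was the FOX motif comparison. Alternatives were 2 other floors, quantile normalization, median centring, no filter, the mean of probe sets, a 0 h minimum of 200, and leaving out each array. The result of 1 gene list is not reported here.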

Additional observations from a re-analysis of the deposited data

Results flagged for a closer look

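In 3 members both genotypes did not move the same way from 0 h to 5 h: the wild-type signal ended below 0 h and the knockout signal above it. Zdhhc12, a palmitoyltransferase gene, changed by −0.96 on the log2 scale in wild type and by 0.32 in knockout. H2aw, a histone gene, changed by −0.19 and 0.04, and Ap3m2, an adaptor subunit gene of vesicle traffic, by −0.33 and 0.08. Each genotype is 1 array at each time, so the difference between the genotypes was not tested. The H2aw and Ap3m2 differences are smaller than 0.49, the SD over members of knockout minus wild type at 5 h. No group of arrays was large enough to look for single outlying samples.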

How the results depend on the processing

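A 0 h minimum of 200 left 99 of the 140 members. Median centring before the rule left 86, all within the set, quantile normalization 103 (98 shared) and the mean of the probe sets 122 (117 shared). With members kept, the median 5 h change was −1.05 after quantile normalization, −1.01 after centring and −1.61 with the mean of the probe sets. After centring, 60 members were still halved, 63 returned and 18 at or above 0 h, the last an alternative added after the data were seen. After quantile normalization 58 had returned and 8 were at least 2-fold apart between genotypes. Over all genes, fates and 2-fold differences were computed on the deposited scale only, so the counts on other scales carry no such share. Of the 86 members that also met the rule after centring, 43 were still halved and 29 returned on that scale. Centring gave 14 members called higher at 5 h against 0 h. Against 1 h, 28 members were called lower and 55 higher after quantile normalization, 25 and 61 after centring, and 28 were lower without the filter. For quantile normalization and centring, the share of higher calls over all genes is given above. Zdhhc12 turned to 0.33 after quantile normalization, 0.44 after centring, 0.07 to 0.25 with 1 wild-type array (0 h or 5 h) left out, its lowest value being −0.89 without the knockout 5 h array, and Ints5 and Rsrp1 to 0.063 and 0.14 after centring; the cause was not tested. Leaving out each array in turn gave 108 to 120 members lower and 4 to 8 higher against 0 h, and 31 to 47 lower and 17 to 30 higher against 1 h. No paired analysis was possible because each genotype and time has 1 array and no replicate number; the genotype term already compares times within a genotype. Signals near the floor limit 18 members at 5 h, whose changes are bounds.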

Other observations

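Outside the set, 2246 probe sets that are no controls have several gene symbols or none. Of these, 877 had a signal of at least 100 at 0 h in both genotypes, 15 were halved at 1 h in both and 9 of the 15 were still halved in both at 5 h. A probe set listed for several replication-dependent H2A histone genes, read 1422, 648 and 183 with wild-type cells and 1510.2, 467 and 267 with knockout cells at 0, 1 and 5 h, so its 5 h signals were under both 1 h signals. Another, unnamed in the annotation, read 5592, 1992 and 12369 with wild-type cells and 5982, 2079.5 and 12589 with knockout cells, a fall followed by a rise above 0 h. Of the 6657 genes with at least 100 at 0 h, 199 had doubled in both genotypes at 1 h, against 175 halved.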
